A study of Mus musculus with 6 samples.

Results

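The Notch segmentation clock and the somites it lays down were followed through 10 genes in whole mouse fetuses with and without overexpression of KLF12, a zinc-finger transcriptional repressor. The genes were taken by name: Dll1, Dll3, Lfng, Hes7, Mesp2, Ripply2, Meox1, Tcf15, Uncx and Tbx18. All 10 had a row among the 17741 rows of the expression table, and 9 were among the 12141 genes tested for a difference between the groups. The exception was Mesp2, whose mean over the 6 libraries lay under the minimum of 1 FPKM. FPKM is a fragment count scaled for transcript length and library size, so levels of different genes can be compared on this scale.

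Both groups were C57BL/6 fetuses at 9.0 dpc (days post coitum), 3 libraries of the WT genotype and 3 of the genotype labelled KLF12 overexpression. The study concerns neural tube defects in fetuses with too much KLF12. The labels used here name neither the promoter nor the cells that drive KLF12, and do not say whether a library is 1 fetus or a pool. P-values therefore reflect only how these 6 samples vary, which may be technical. Because whole fetuses were sequenced, fewer somite cells and less RNA per cell cannot be told apart in any value below.

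As background, somites form in pairs from the presomitic mesoderm at the tail end of the embryo. The delta ligand Dll1 activates Notch receptors, the cleaved receptor joins the DNA-binding protein RBPJ, and this complex switches on Hes7 and Lfng. Their products then damp the pathway, so that it oscillates once for each new segment. At the front of the presomitic mesoderm Mesp2 and Ripply2 set the next boundary, after which Tcf15 and Meox1 mark the formed somite, Tbx18 its anterior and Uncx its posterior part.

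The promoters of the 2 clock genes that Notch drives, and of the 2 ligands whose levels moved together between libraries, show which of them carry RBPJ letters close to the start. Windows from 250 bases before to 50 bases after the transcription start were taken from RefSeq on build GRCm38.p6, which is a later build than the mm9 named by the submitters. Of the 10 genes, 8 had a window there. Capitals mark TGGGAA, the core letters bound by RBPJ, on either strand. The windows are chr11:69120203-69120502 on the plus strand for Hes7, chr5:140607091-140607390 on the plus strand for Lfng, chr17:15376883-15377182 on the minus strand for Dll1, and chr7:28301736-28302035 on the minus strand for Dll3. Each is printed 5′ to 3′ on the strand of its gene. The windows of Lfng, Dll1 and Dll3 are at the RefSeq gene start. That of Hes7 is at a start 1547 bases inside the gene, so it is not the same kind of window. The second Dll1 window and the Uncx window, counted below, are also at starts inside the gene, for Uncx by 33 bases.
Hes7: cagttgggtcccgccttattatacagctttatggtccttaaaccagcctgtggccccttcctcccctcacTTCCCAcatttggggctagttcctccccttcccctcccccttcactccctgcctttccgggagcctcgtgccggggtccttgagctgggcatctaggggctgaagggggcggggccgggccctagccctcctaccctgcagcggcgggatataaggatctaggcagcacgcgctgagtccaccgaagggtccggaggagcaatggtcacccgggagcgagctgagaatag
Lfng: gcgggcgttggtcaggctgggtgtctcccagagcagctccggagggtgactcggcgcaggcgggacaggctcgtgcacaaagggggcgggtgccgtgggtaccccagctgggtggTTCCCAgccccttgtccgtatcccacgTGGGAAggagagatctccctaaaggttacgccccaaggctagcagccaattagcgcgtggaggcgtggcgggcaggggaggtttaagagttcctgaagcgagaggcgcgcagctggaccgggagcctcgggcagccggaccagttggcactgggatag
Dll1: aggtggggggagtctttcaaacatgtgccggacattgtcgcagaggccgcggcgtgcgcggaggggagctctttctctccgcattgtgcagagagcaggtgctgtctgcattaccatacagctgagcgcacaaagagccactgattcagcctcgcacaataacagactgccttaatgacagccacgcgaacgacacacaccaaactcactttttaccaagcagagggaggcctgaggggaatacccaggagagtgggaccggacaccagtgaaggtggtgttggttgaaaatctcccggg
Dll3: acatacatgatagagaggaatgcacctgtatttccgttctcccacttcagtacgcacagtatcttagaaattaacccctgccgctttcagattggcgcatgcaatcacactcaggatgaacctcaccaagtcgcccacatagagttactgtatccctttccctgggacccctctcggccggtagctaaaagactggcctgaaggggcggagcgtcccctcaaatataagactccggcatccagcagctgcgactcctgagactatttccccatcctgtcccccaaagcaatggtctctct
The Hes7 window held 1 match and the Lfng window 2, one on each strand, while the Dll1 and Dll3 windows held 0. A match was also found in the Tbx18 window and in none of those of Mesp2, Ripply2 and Uncx, nor in a second Dll1 window. Of all 32851 promoter windows of this length, 25.6% held the same letters. The CACCC letters that KLF family proteins bind (CACCC or its reverse complement GGGTG) were matched 4 times at Lfng, 1 time at Hes7 and 0 times in the printed windows of Dll1 and Dll3. They were matched 2 times in the second Dll1 window, 3 times at Mesp2, 2 times each at Ripply2 and Uncx and 1 time at Tbx18, and 57.5% of all windows held them. The GC box GGGCGG, searched on both strands, was found 1 time each at Hes7, Lfng, Dll3 and Mesp2, at Lfng overlapping a CACCC match, and 0 times in both Dll1 windows and at Ripply2, Uncx and Tbx18, against 35.7% of all windows. The N-box CACNAG (reverse complement CTNGTG), letters that Hes proteins bind, was matched 1 time each at Hes7, Lfng and the printed Dll1 window and 0 times in the other windows of the members, and 42.5% of all windows held it. The T-box letters AGGTGT (reverse complement ACACCT) were matched 1 time at Mesp2 and in no other window of the members, against 13.7% of all windows. No RBPJ, N-box or T-box match overlapped another motif in these windows. These matches describe the letters in the windows only.

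The overexpressed gene was examined first. Klf12 was at 1.99, 2.11 and 1.32 FPKM in WT libraries 1 to 3 and at 16.4, 15.2 and 23.9 FPKM in KLF12 libraries 1 to 3. The groups did not overlap, and the log2(FPKM + 1) difference was 2.78 ± 0.22 (SE), with an adjusted p = 0.00113 in limma. The libraries were not alike in other respects. Y-linked genes summed to 6.80 to 16.2 FPKM in WT and 25.1 FPKM in KLF12 library 3, and each of the 4 was listed at 0 in KLF12 libraries 1 and 2. KLF12 library 3 had correlations of at most 0.957 with the other KLF12 libraries, whose correlation with each other was 0.972. Its deviation from the WT mean followed transcript length with a Spearman rho of 0.443 across 11651 genes, against 0.04 and -0.24 in KLF12 libraries 1 and 2. Each of the 7 lists of fetal tissue markers summed to at least 13 FPKM in every library. None held a gene at 0 in all 6 libraries, which does not show every marker in every library. Erythroid markers summed to 5128 to 11695 FPKM in WT and to 1336, 3326 and 4262 FPKM in KLF12 libraries 1 to 3, with 10 of 10 differences negative. Yolk sac endoderm markers summed to 69.3 to 394.2 FPKM in WT libraries and 292.5 to 433.9 FPKM in KLF12 libraries, with 10 of 10 differences positive. Surface ectoderm markers summed to 646.4 to 702.1 FPKM and 364.9 to 643.2 FPKM, with 10 of 10 differences negative. The part of these marker differences in the values below was not tested.

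In WT fetuses the formed-somite genes were the most abundant of the 10. Meox1 was at 33.5 ± 0.381 FPKM and Tcf15 at 24.6 ± 1.04 FPKM (SD, n = 3), and their ranges did not overlap. Lfng at 12.6 ± 0.846, Hes7 at 12.5 ± 2.82, Dll3 at 10.2 ± 0.722 and Dll1 at 8.54 ± 1.65 FPKM came next, and each of these overlapped its neighbour in this order. Uncx followed at 4.12 ± 1.04 FPKM, separate from Dll1 above it and from Ripply2 below it. Ripply2 at 2.08 ± 1.27, Tbx18 at 1.48 ± 0.105 and Mesp2 at 0.520 ± 0.420 FPKM were the lowest, with Ripply2 overlapping both of the others and Tbx18 lying above Mesp2 in every WT library. In the KLF12 group the 4 most abundant were Meox1 at 20.6 ± 9.17, Tcf15 at 18.5 ± 7.22, Hes7 at 11.2 ± 2.92 and Lfng at 9.80 ± 2.85 FPKM, and all neighbours in that order overlapped.

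**Figure D1:**
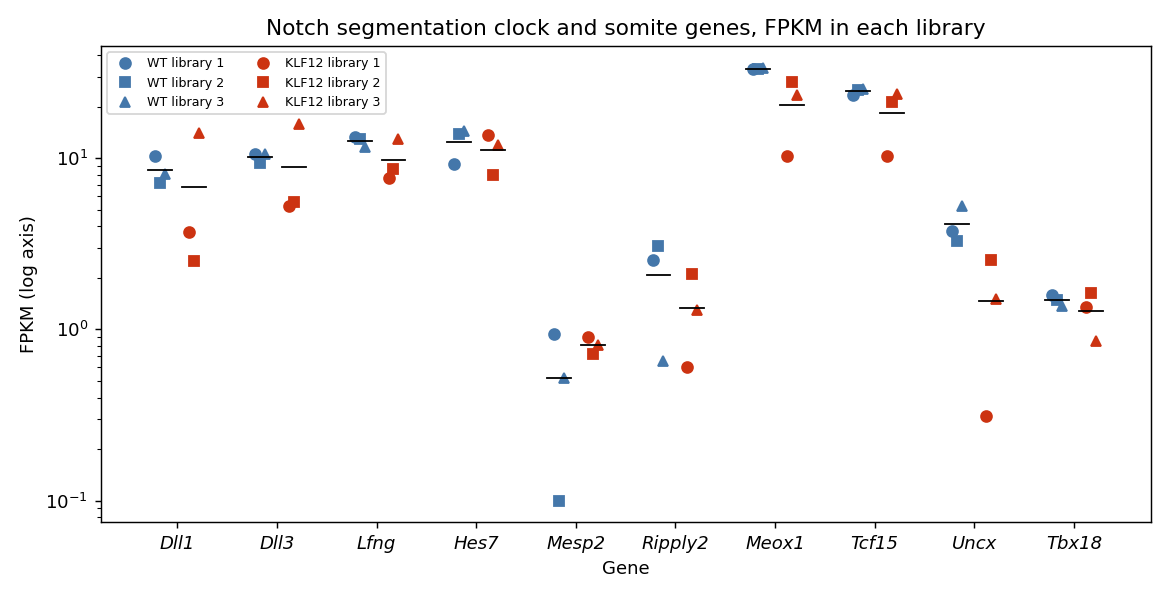
FPKM on a log axis for the 10 genes in each of the 6 libraries, WT in blue and KLF12 in red, with marker shape giving the library number and black lines the group means. Only Meox1 and Uncx have groups that do not overlap, and KLF12 library 1 is the lowest of the 6 for Lfng, Dll3, Ripply2, Meox1, Tcf15 and Uncx.

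No member passed the test: 0 of 9 had an adjusted p under 0.05 in limma, against 0.634% of all genes called lower and 0.0988% called higher. At an unadjusted p under 0.05, 2 of 9 were lower, Meox1 and Uncx, where 6.32% of all genes were lower at that level. The same pair were the 2 of 9 whose KLF12 libraries all lay below all WT libraries, and 8.98% of all genes were separated in that direction. All 9 differences were negative, as were those of 6398 of the 12141 genes tested. Those of Hes7 and Tbx18 turned sign when 1 KLF12 library was left out. The median of the 9 was -0.37 on the log2(FPKM + 1) scale, beside -0.02 over all genes tested. On this scale the change of low genes is understated.

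**Figure D2:**
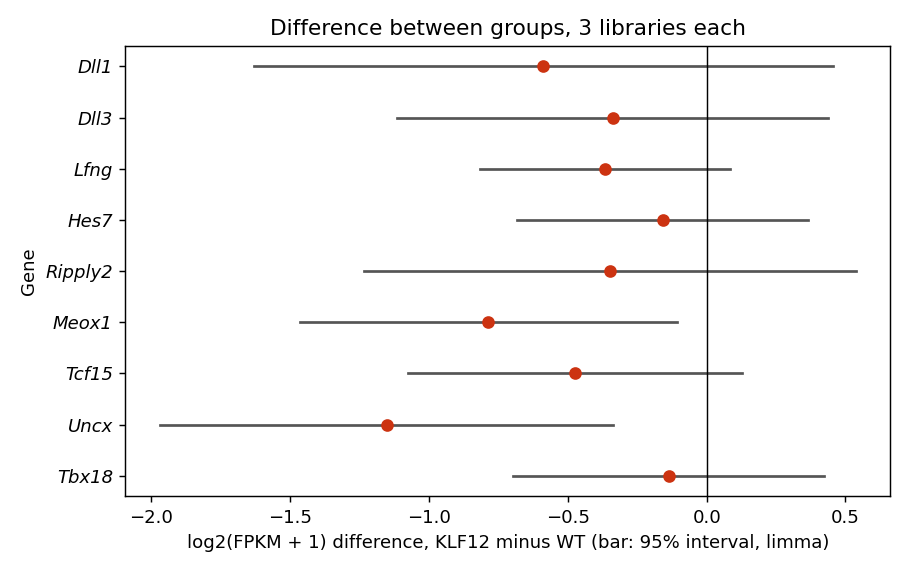
Difference in log2(FPKM + 1) between the KLF12 and WT groups for the 9 tested genes, with points for the limma estimate and bars for its 95% interval (3 libraries a group). Every point lies below 0, and only the intervals of Meox1 and Uncx exclude 0, before adjustment for the number of genes.

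Among the ligands, Dll1, the activating delta ligand of the presomitic mesoderm and neural tube, was at 10.4, 7.19 and 8.06 FPKM in WT libraries 1 to 3. In KLF12 libraries 1 to 3 it was at 3.69, 2.51 and 14.1 FPKM. Thus 2 KLF12 libraries lay below every WT library and the third lay above every one. The log2 difference was -0.59 ± 0.46 (SE), with a 95% interval of -1.63 to 0.46 (limma adjusted p = 0.726). Dll3, a divergent delta protein that acts inside the cell to restrain Notch, was at 10.7, 9.39 and 10.6 FPKM in WT and at 5.24, 5.59 and 16.0 FPKM in KLF12 libraries 1 to 3. The split within the KLF12 group was the same as for Dll1, and the difference between the groups was -0.34 ± 0.34 (adjusted p = 0.813). The ratio of Dll1 to Dll3 was 0.758 to 0.975 in WT libraries and 0.704, 0.449 and 0.883 in KLF12 libraries, so the ratio overlapped between the groups.

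Without KLF12 library 3, both ligands were called lower by limma, Dll1 by a log2 difference of -1.22 ± 0.21 (adjusted p = 0.0384) and Dll3 by -0.81 ± 0.14 (adjusted p = 0.0396). In that fit 2 of 9 members and 1.90% of all genes were called lower. Without KLF12 library 1 or 2 the differences were smaller, -0.38 and -0.17 for Dll1 and -0.084 and -0.12 for Dll3, and neither gene was called. The 2 KLF12 libraries that remain are the ones with Y-linked genes listed at 0, so genotype and fetal sex cannot be told apart there. Neural tube markers, whose tissue also expresses both ligands, summed to 114 to 122 FPKM in WT, to 111 and 125 FPKM in KLF12 libraries 1 and 2, and to 233 FPKM in KLF12 library 3. Of the 11 markers 10 were tested, 7 with positive differences, and 0 were at 0 in all libraries. With each library's trend on transcript length removed, the differences over all 6 libraries were -0.59 for Dll1 and -0.32 for Dll3, and neither was called.

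Lfng, the fringe glycosyltransferase that sugar-modifies Notch and cycles with the clock, was at 13.3, 12.9 and 11.7 FPKM in WT libraries. It was at 7.72, 8.62 and 13.1 FPKM in KLF12 libraries 1 to 3. Here too KLF12 libraries 1 and 2 lay below WT and library 3 lay within its range. The log2 difference was -0.37 ± 0.20 (95% interval -0.82 to 0.08, adjusted p = 0.574), -0.57 without KLF12 library 3 (adjusted p = 0.0754) and -0.23 without KLF12 library 1 (adjusted p = 0.881). Hes7, the repressor whose own oscillation paces the clock, did not share this split. It was at 9.28, 13.8 and 14.4 FPKM in WT and 13.7, 7.96 and 11.9 FPKM in KLF12 libraries 1 to 3, with WT library 1 and KLF12 library 2 the lowest. The difference of -0.16 ± 0.23 had an interval from -0.68 to 0.37 (adjusted p = 0.886) and depended on single libraries: it was -0.34 without WT library 1 and turned sign, to 0.048, without KLF12 library 2. For oscillating genes, a whole-fetus value averages over all phases present in that sample.

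The boundary genes were close to the limit of detection. Mesp2, the transcription factor that fixes the segment border and the anterior part of the next somite, was at 0.94, 0.10 and 0.52 FPKM in WT and 0.90, 0.72 and 0.81 FPKM in KLF12 libraries. At the estimated depth of 15400000 to 16100000 fragments a library, these values stand for about 3 to 29 fragments, so single libraries are imprecise. In the fit without a filter its difference was 0.29 ± 0.21 with an interval from -0.22 to 0.80 (limma adjusted p = 0.747). Ripply2, which with its partners shuts Mesp2 expression off, was at 2.54, 3.06 and 0.65 FPKM in WT and at 0.60, 2.12 and 1.30 FPKM in KLF12 libraries. Both groups held high and low libraries and overlapped, with a difference of -0.35 ± 0.39 (adjusted p = 0.837) on about 5 to 24 fragments. This value was -0.099 without WT library 2, -0.101 without KLF12 library 1 and -0.75 without WT library 3. The intervals of both genes leave room for changes in either direction.

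Of the formed-somite genes, Meox1, a homeobox factor of the whole early somite, was at 33.2, 33.2 and 33.9 FPKM in WT and at 10.3, 27.8 and 23.6 FPKM in KLF12 libraries 1 to 3. The WT libraries were nearly identical, and all KLF12 libraries lay below them. The KLF12 mean was 61.5% of the WT mean, and the log2 difference was -0.79 ± 0.30 (95% interval -1.47 to -0.11, unadjusted p = 0.0281, limma adjusted p = 0.377). The exact permutation p was 0.1, the smallest that 3 samples against 3 allow. Tcf15, the bHLH factor paraxis that makes somites epithelial, was at 23.4, 25.2 and 25.3 FPKM in WT and at 10.3, 21.4 and 23.9 FPKM in KLF12 libraries. KLF12 library 3 lay inside the WT range, and the difference was -0.47 ± 0.27 (adjusted p = 0.592). Both differences were smaller without KLF12 library 1: Meox1 was then at -0.37 (adjusted p = 0.547) and Tcf15 at -0.12 (adjusted p = 0.926).

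Uncx, the homeobox factor of the posterior part, was at 3.77, 3.29 and 5.29 FPKM in WT and at 0.310, 2.56 and 1.51 FPKM in KLF12 libraries 1 to 3. No KLF12 library reached the lowest WT value, and their mean was 35.5% of the WT mean. This was the largest difference among the 9 tested members, -1.15 ± 0.36 on the log2 scale (95% interval -1.97 to -0.34, unadjusted p = 0.0107, limma adjusted p = 0.263). Uncx rested on an estimated 9 to 155 fragments a library, and without KLF12 library 1 its difference was -0.76 (adjusted p = 0.516). Tbx18, the T-box factor of the anterior part that is also expressed in the developing epicardium, was at 1.59, 1.48 and 1.38 FPKM in WT and 1.35, 1.63 and 0.860 FPKM in KLF12 libraries. These overlapped, with a difference of -0.14 ± 0.25 and an interval from -0.70 to 0.42 (adjusted p = 0.909). It was -0.25 without KLF12 library 2 and 0.0024 without KLF12 library 3.

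Ratios within a library do not depend on how libraries are scaled, and 4 pairs of genes with related roles, the ligand pair above among them, were formed after the values had been seen. They are therefore given as a description, with no test. A trend on transcript length that differs between libraries need not cancel in a ratio. Uncx and Tbx18 have 1847 and 4679 bases, and Meox1 and Tcf15 have 2228 and 980 bases. The part of length in these ratios was not tested. The ratio of Uncx to Tbx18, posterior to anterior, was 2.37, 2.22 and 3.83 in WT and 0.230, 1.57 and 1.76 in KLF12 libraries 1 to 3. The groups did not overlap. The ratio of Meox1 to Tcf15 was 1.42, 1.32 and 1.34 in WT and 0.995, 1.30 and 0.989 in KLF12 libraries. It was separate as well, though KLF12 library 2 lay just under the lowest WT value. The numerators, Uncx and Meox1, were the only members whose own groups did not overlap, so these ratios are not independent of that result. The ratio of Hes7 to Lfng was 0.696 to 1.23 in WT and 0.911 to 1.77 in the KLF12 group and overlapped.

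Across libraries the genes fell into more than one profile. KLF12 library 1 lay below every WT library for 8 of 9 members, library 2 for 7 and library 3 for 3, where 39.1%, 35.0% and 31.8% of all genes did so. KLF12 library 3 lay above every WT library for 2 of 9, Dll1 and Dll3, where 38.3% of all genes did so. The SD of log2 values was larger in the KLF12 group for 8 of 9, Ripply2 being the exception, beside 71.8% of all genes. By the root mean square difference of their profiles over the 6 libraries (log2 values centred on the mean of each gene), the closest pair was Meox1 and Tcf15 at 0.203, followed by Meox1 and Uncx at 0.254. Lfng and Tcf15 came next, at 0.263. Dll1 was closest to Dll3, at 0.273, and Lfng and Dll3 lay at 0.276, so Lfng was near both a somite gene and a ligand. The farthest pair was Dll1 and Ripply2 at 0.854.

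**Figure D3:**
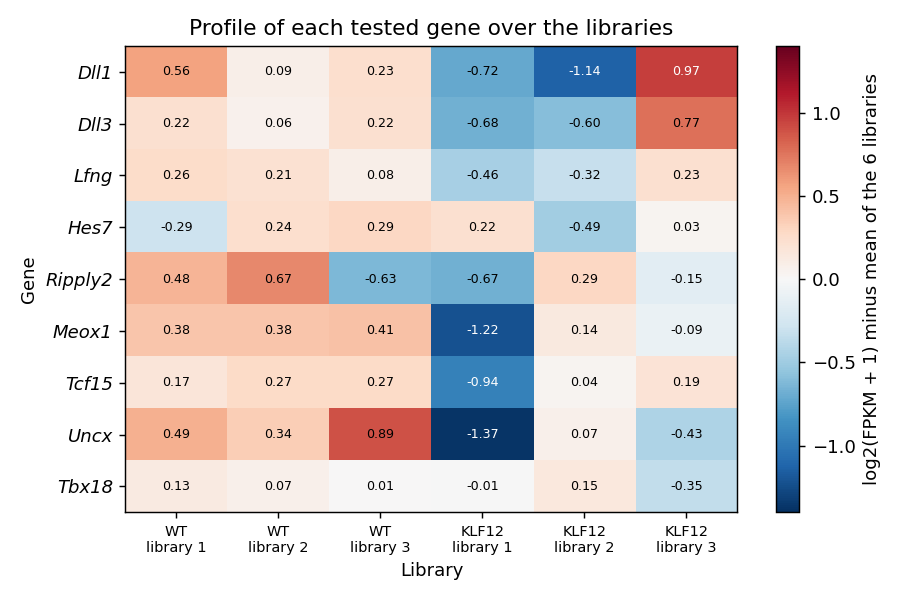
Values of log2(FPKM + 1) minus the gene's mean over the 6 libraries for the 9 tested genes, red for above and blue for below that mean. Meox1, Tcf15 and Uncx are lowest in KLF12 library 1, at -1.22, -0.94 and -1.37, whereas Dll1 and Dll3 are low in KLF12 libraries 1 and 2 and highest in library 3, at 0.97 and 0.77.

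The same measure against the mean profile of the 9 tested members gave the non-member genes most like it among 5165 candidates. They were Kif1a, a kinesin motor of axonal transport, at 0.0365, Ampd2, an AMP deaminase, at 0.0748, Gypc, a glycophorin of the red cell membrane, at 0.0760, and Fam174b at 0.0844. The members themselves lay between 0.111 for Lfng and 0.531 for Dll1. The likeness is over 6 libraries, and the 4 genes were picked as the closest, so it is a description only.

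The other genes of the pathway were taken from 5 lists of Notch and somite genes. Of their 89 tested genes 0 were called by limma, and at an unadjusted p under 0.05 7 were higher and 6 lower, where 4.57% and 6.32% of all genes were. Genes without overlap, higher and lower, numbered 2 and 1 in the core Notch list and 0 and 0 among Notch targets. They numbered 3 and 1 for presomitic mesoderm, 0 and 1 for segment boundary and 1 and 3 for somite derivatives. Of all genes, 7.90% were separated higher and 8.98% lower. In the core Notch list of receptors, other ligands and processing enzymes, 28 of 28 genes were tested, with 17 positive and 11 negative differences and a median of 0.05. Jag2, a jagged ligand, was at 5.50, 7.12 and 5.77 FPKM in WT and at 2.32, 1.4 and 4.04 FPKM in KLF12 libraries, all below WT, a difference of -1.05 ± 0.28 (limma adjusted p = 0.175). Without KLF12 library 3 it was -1.33 and was called (adjusted p = 0.0323), as it was with the length trend removed (-1.08, adjusted p = 0.0448). These fits called 1.90% and 1.06% of all genes lower, and without library 3 genotype and fetal sex cannot be told apart. Adam17, a protease that can cut the Notch receptor, averaged 15.02 ± 1.28 FPKM in WT fetuses and 19.6 ± 1.67 FPKM with KLF12, without overlap (difference 0.37, adjusted p = 0.381).

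Of 12 Notch targets and related repressors 10 were tested, 3 with positive and 7 with negative differences and a median of -0.08. The smallest unadjusted p values belonged to Bhlhe40, a bHLH repressor also induced by other signals, and Id4, an inhibitor of bHLH factors. Bhlhe40 was at 0.530, 0.390 and 0.850 FPKM in WT and at 5.63, 0.620 and 4.24 FPKM in KLF12 libraries, with library 2 inside the WT range (difference 1.28 ± 0.48, adjusted p = 0.363). Without that library the difference was 1.90 and was called (limma adjusted p = 0.0402), where 0.0741% of all genes were called higher. That library is the lowest of the KLF12 group, so the call rests on its removal. The WT mean of Bhlhe40, 0.590 FPKM, lay under the minimum of 1 FPKM, and the gene was tested only through its KLF12 values. Id4 averaged 2.52 ± 1.0006 FPKM in WT fetuses and 3.94 ± 0.947 FPKM with KLF12, with overlap (adjusted p = 0.558).

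In the presomitic mesoderm list, with 22 of 23 tested, 8 differences were positive and 14 negative, with a median of -0.12. Msgn1, the bHLH factor mesogenin of the posterior presomitic mesoderm, was at 11.5, 13.5 and 11.5 FPKM in WT and at 2.18, 5.68 and 6.31 FPKM in KLF12 libraries 1 to 3. The groups did not overlap, with a difference of -1.29 ± 0.30 (95% interval -1.96 to -0.62, limma adjusted p = 0.115). On the log2(FPKM + 1) scale this exceeded the difference of any tested member. With 0.1 added to FPKM in place of 1 the order turned, with Uncx at -1.78 and Msgn1 at -1.48. Without KLF12 library 3 the Msgn1 difference was -1.51 and was called (limma adjusted p = 0.0487), where 1.90% of all genes were called lower. As for the ligands, genotype and fetal sex cannot be told apart in that fit. Sp5, a zinc-finger target of Wnt signalling, averaged 10.2 ± 3.68 FPKM in WT fetuses and 15.7 ± 1.36 FPKM with KLF12, without overlap (difference 0.64, adjusted p = 0.373, and 0.36 without WT library 3).

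Segment boundary genes, 13 of 15 tested, had 6 positive and 7 negative differences and a median of -0.0019. Ripply3, a relative of Ripply2 best known from pharyngeal tissue, was at 5.40, 7.89 and 5.53 FPKM in WT and at 2.29, 3.80 and 3.08 FPKM in KLF12 libraries, without overlap (difference -0.84 ± 0.23, adjusted p = 0.181). Epha4, the ephrin receptor of the anterior somite that Mesp2 activates, was at 7.21, 4.73 and 4.66 FPKM in WT and at 11.2, 6.91 and 12.4 FPKM in KLF12 libraries (difference 0.76 ± 0.25, adjusted p = 0.284). Only KLF12 library 2 overlapped WT. Somite derivatives, 16 of 22 tested, had 5 positive and 11 negative differences and a median of -0.15. En1, a homeobox factor of the central dermomyotome and the midbrain border, was at 2.30, 1.96 and 1.56 FPKM in WT and at 5.85, 3.06 and 7.83 FPKM in KLF12 libraries, without overlap (difference 1.10 ± 0.30, adjusted p = 0.180).

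**Figure D4:**
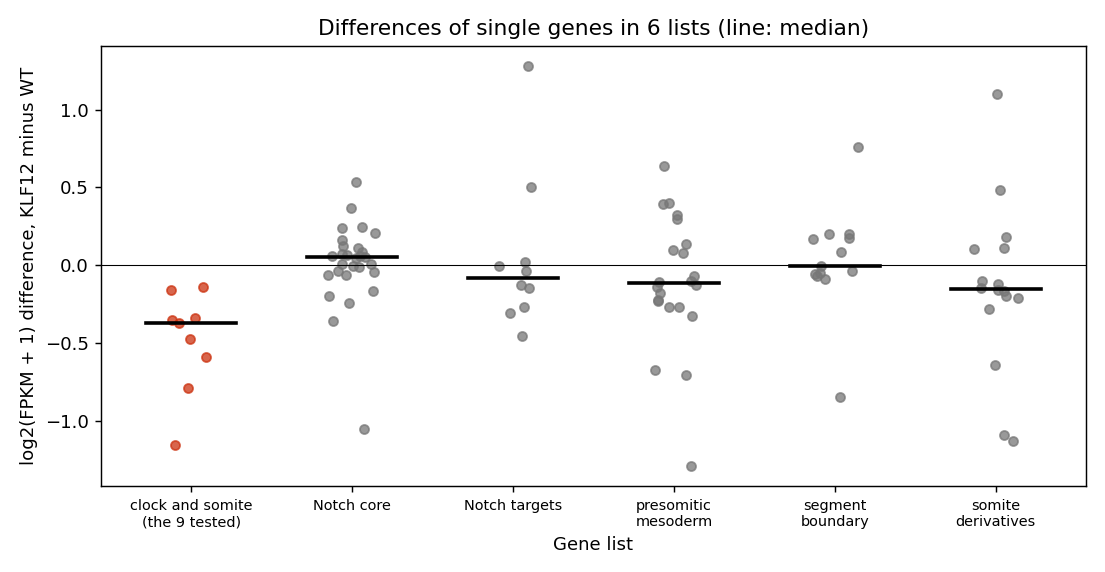
Difference in log2(FPKM + 1) between the KLF12 and WT groups for each tested gene, with the 9 clock and somite genes in red, the 5 other lists in grey and a black line at each median. The medians are -0.37, 0.05, -0.08, -0.12, -0.0019 and -0.15 from left to right, and 0 of the genes shown were called by limma at an adjusted p under 0.05.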

How the data were processed

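RNA from 6 whole fetuses or pools was sequenced. The authors deposited 1 table of FPKM values with 2 decimals. CASAVA, HISAT2 2.0.4, RSEM 1.2.8 and the build mm9 are named, without roles, per the submitters' processing notes. Of 17741 rows, 16874 took a symbol from NCBI gene numbers (GRCm38.p6 table).

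The log2(FPKM + 1) values of the 12141 genes averaging 1 FPKM or more were fitted in limma 3.58.1 (R 4.3.3) with a variance trend, adjusted by Benjamini-Hochberg over all of them. The fit was tested on simulated data. Whole fragments were not recovered, so no count test was run; depth was estimated from the step that 1 fragment makes in FPKM times GENCODE M21 transcript length (median of basic coding transcripts), and covers counting error only.

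The 10 genes and the lists were chosen with earlier results of these data known. Genes named outside the 10 are the 2 of each list with the smallest unadjusted p, since none was called, Klf12, the 4 closest profiles and 5 genes chosen after their values were seen. A gene that this rule names is not reported here. Alternatives covered pseudocount, filter, scaling, variance model, sample weights, replicate block and each library left out. Removal of the length trend was added after seeing the data.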

Additional observations from a re-analysis of the deposited data

How the results depend on the processing

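Klf12 stayed called in each setting, at 2.59 to 3.28. The number of called genes, 89, was 14 to 319 with each library left out (14 without WT library 3, 19 without WT library 2, 25 without WT library 1, 45 without KLF12 library 1, 53 without KLF12 library 2, 319 without KLF12 library 3), 29 without a filter, 55 as TPM, 1585 with array weights, 149 with the length trend removed and 173 at an adjusted p under 0.1. Members called, 0, were 0 to 2 with each library left out and 6 with array weights, which gave KLF12 library 1 a weight of 3.13 and library 3 one of 0.206; 8.44% of all genes were then lower. Genes of the other lists called, 0 of 89, were 0 to 3 with each library left out, 2 with the length trend removed and 1 at an adjusted p under 0.1. With array weights 14 of them were called, 6 higher and 8 lower, where 4.61% and 8.44% of all genes were. The members' median, -0.37, was -0.69 to -0.23 with each library left out and -0.74 with array weights. Hes7 turned sign with array weights (0.0022) and ranged from -0.34 to 0.048 with each library left out; Tbx18 ranged from -0.25 to 0.0024, turning without KLF12 library 3. The other tested members kept their sign throughout. Apart from what the left-out library, the filter or the weights do by construction, the cause was not tested. Same-numbered libraries did not deviate together (correlations 0.03, -0.11 and 0.04); with the replicate block 64 genes and 0 members were called. The low counts of Mesp2 and Ripply2 limit what could be detected.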

Other observations

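The Notch receptor that works with Dll1 in the presomitic mesoderm showed the same split between KLF12 libraries as the ligands. Notch1 was at 4.76, 4.10 and 4.55 FPKM in WT and at 2.31, 1.33 and 9.09 FPKM in KLF12 libraries 1 to 3. Notch3, a receptor of the neural tube and vessel wall, was at 12.3 to 13.9 FPKM in WT and at 9.90, 6.91 and 30.5 FPKM in KLF12 libraries. For both, KLF12 libraries 1 and 2 lay below every WT library and library 3 above every one, and neither was called by limma (adjusted p = 0.865 and 0.999). The split was not particular to Notch receptors and ligands, since other genes of the 5 lists, some outside the pathway, showed it too. Of all genes, 39.1% and 35.0% lay below every WT library in KLF12 libraries 1 and 2. In library 3, 38.3% lay above every one, and the share with all of these at once was not counted. The Notch1 and Notch3 transcripts are long, 9488 and 8016 bases. In KLF12 library 3 the deviation from WT followed transcript length (Spearman rho 0.443 across genes) and neural tube markers summed to 233 FPKM, against 111 to 125 FPKM in the other 5 libraries. The part of either in these values was not tested. Hes1, a Notch target expressed in many tissues, averaged 36.3 ± 3.93 FPKM in WT fetuses and 36.8 ± 2.23 FPKM with KLF12 (SD, n = 3).

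Tbx6, the T-box factor that activates Dll1 and Mesp2 in the presomitic mesoderm, was at 4.80, 8.96 and 8.99 FPKM in WT and at 4.54, 2.29 and 6.89 FPKM in KLF12 libraries, with overlap (difference -0.67 ± 0.34, limma adjusted p = 0.527). Pax1, a paired-box factor of the sclerotome, was at 1.88, 1.75 and 4.25 FPKM in WT and at 0.04, 0.81 and 1.13 FPKM in KLF12 libraries, without overlap (difference -1.12 ± 0.37, limma adjusted p = 0.284). These 5 genes were chosen after their values were seen.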
